A study of Danio rerio with 12 samples.

Results

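Tumor cells from *IRF4*-transgenic zebrafish kept in the vehicle DMSO were compared between day 3 and day 1. The members are the 6 DMSO libraries of a series of 12, chosen by their labels, with 3 libraries labelled day 3 and 3 labelled day 1. In all groups the fish were Tg(*lck:IRF4*) animals, a line made in the Singapore wild-type strain, which carry human *IRF4* and the fluorescent marker mCherry under the zebrafish *lck* promoter and had developed lymphoma. Per the study's reporting summary they were 10 months old with the sexes not distinguished. Fish imaged under DMSO and JQ1 in the same work were *p53* wild type, while the labels of the sequenced libraries name no *p53* genotype. The fish stood in individual tanks with DMSO for 3 days or 1 day, at the amount that carried 4 μM JQ1, an inhibitor of BRD proteins, in the other 6 libraries. Tumor cells were sorted by mCherry, and total RNA was sequenced with ERCC spike-in RNA added by cell number. The labels speak of independent animals without tying each library to an animal, and they do not give the time of day of harvest.

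IRF4 is a transcription factor that guides the maturation of B and T lymphocytes and is overexpressed in several human lymphoid cancers. The *lck* promoter is active in T cells and, at a lower level, in some other lymphocytes, so the transgene can drive growth in cells at several stages. A tumor that arises in one fish descends from its own founding cells, and lymphomas of different animals can therefore differ in the genes they express even under the same oncogene. Vehicle-treated tumors at 2 times show how far libraries of the days differ without the drug, beside how far libraries differ at one time. No label ties libraries of the days to the same tumor, so the change of a tumor over time is not shown.

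The deposited table held whole-number read counts per gene. Counts on zebrafish genes ranged from 8176139 to 12440426 at day 3 (median 9279870) and from 11760990 to 12680970 at day 1 (median 11823949), and 18653 to 19647 genes had a count in a library. Levels are given as CPM, the counts of a gene per 1e6 of all zebrafish gene counts in the library. Where a gene had no count, 3 counts set the upper limit, or 0.237 to 0.367 CPM, for counting error only. CPM of single zebrafish genes were normalized by TMM, a scaling that assumes that most genes do not differ, while CPM of the transgenes and sums over lists were not. The table has no transcript lengths, so CPM of different genes are ranks by read count and not by number of transcripts. Each p-value sets a difference against the spread between libraries of a group, with 3 libraries per day and treatment.

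The transgenes were present in each library at a high level. Human *IRF4* had 6291, 3307 and 4240 CPM at day 3, against 5701, 5480 and 4009 CPM at day 1. mCherry had 5236, 3484 and 3476 CPM at day 3, against 4751, 3945 and 3275 CPM at day 1. The days overlapped for both. Their sum averaged 8678 ± 2510 CPM at day 3 and 9054 ± 1616 CPM at day 1 (SD, n = 3 each), a difference of -0.08 on the log2 scale (two-sided exact permutation test, p = 0.9, smallest possible p 0.1). Zebrafish gene counts per ERCC count, which follow the RNA recovered per sorted cell, were 92.3 ± 9.46 at day 3 and 101 ± 10.6 at day 1 (SD, n = 3 each). Their log2 difference was -0.13 (exact permutation test, p = 0.3).

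The sorted cells expressed most genes of a T-lineage list. Of 33 genes of T-cell identity, 26 had 10 CPM or more on average, and 1 (*cd247*, a signalling chain of the T-cell receptor) was at or under 3 counts in each library. *cd247l*, also in the list, was measured, with 3.25, 3.55 and 1.41 CPM at day 3 and 34.9, 8.62 and 8.90 CPM at day 1. Its days did not overlap. *lck*, the Src-family kinase whose promoter drives the transgene, had 916, 1004 and 1167 CPM at day 3 and 1161, 1165 and 632 CPM at day 1. *ZAP70*, the kinase downstream of the T-cell receptor, had 587, 727 and 851 CPM at day 3 and 660, 719 and 408 CPM at day 1. The days overlapped for these and for *RUNX3*, a transcription factor of the CD8 lineage, at 2056, 1765 and 2641 CPM at day 3 and 2823, 1968 and 1426 CPM at day 1. *GATA3*, which directs early T-cell development, had 1286, 1284 and 2190 CPM at day 3 and 3232, 2258 and 2363 CPM at day 1. Its day 3 libraries were all below those of day 1, the closest pair by little, with a log2 fold change of -0.72 and an adjusted p of 0.904 in edgeR's quasi-likelihood test with Benjamini-Hochberg adjustment. The T-cell receptor constructs in the count table had 0 counts in each library and were not analysed here.

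The most abundant zebrafish transcripts were those of protein synthesis. Of the 30 zebrafish genes with the highest counts, 18 encode ribosomal proteins and 2 are in the list of translation factors. The transgenes were left out of this ranking. Human *IRF4* averaged 4613 CPM at day 3 and 5063 CPM at day 1, and mCherry 4065 and 3990 CPM. Both averaged more than the 30th gene, at 2764 CPM. Elongation factor 1 alpha (*eef1a1l1*) ranked first with 21136, 13358 and 19371 CPM at day 3 and 14400, 25006 and 18742 CPM at day 1. Elongation factor 2 (*eef2b*) followed with 16073, 10956 and 18909 CPM at day 3 and 17685, 25635 and 17787 CPM at day 1. The cytosolic chaperone gene *HSP90AB1* had 11395, 6172 and 14259 CPM at day 3 and 10261, 16773 and 11419 CPM at day 1. In these 3 genes replicate 2 was the lowest library of day 3 and the highest of day 1, and the days overlapped.

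Outside the ribosome, the 30 genes held beta-actin (*actb2*), the mitochondrial ADP/ATP carrier *SLC25A5*, cyclophilin A (*ppiaa*), the poly(A)-binding protein gene *pabpc1a* and *GTPBP4*, a nucleolar GTPase of ribosome assembly. *GTPBP4* had a wide range within each day, with 3054, 1114 and 4207 CPM at day 3 and 1535, 5649 and 2748 CPM at day 1. The gene *si:dkey-165b20.2*, which the name table does not describe further, stood out in 1 library. It had 7703, 3463 and 3303 CPM at day 3 and 4751, 13.1 and 4087 CPM at day 1, so that it was among the leading transcripts in 5 libraries and far below them in day 1 replicate 2. The 30th gene had 2764 CPM on average and the 31st 2743 CPM. In all, 130 genes had 1000 CPM or more and 1863 had 100 CPM or more. The 13 protein-coding genes of the mitochondrial genome are listed at 0 in each library, so their transcripts are not measured by this table.

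**Figure D1:**
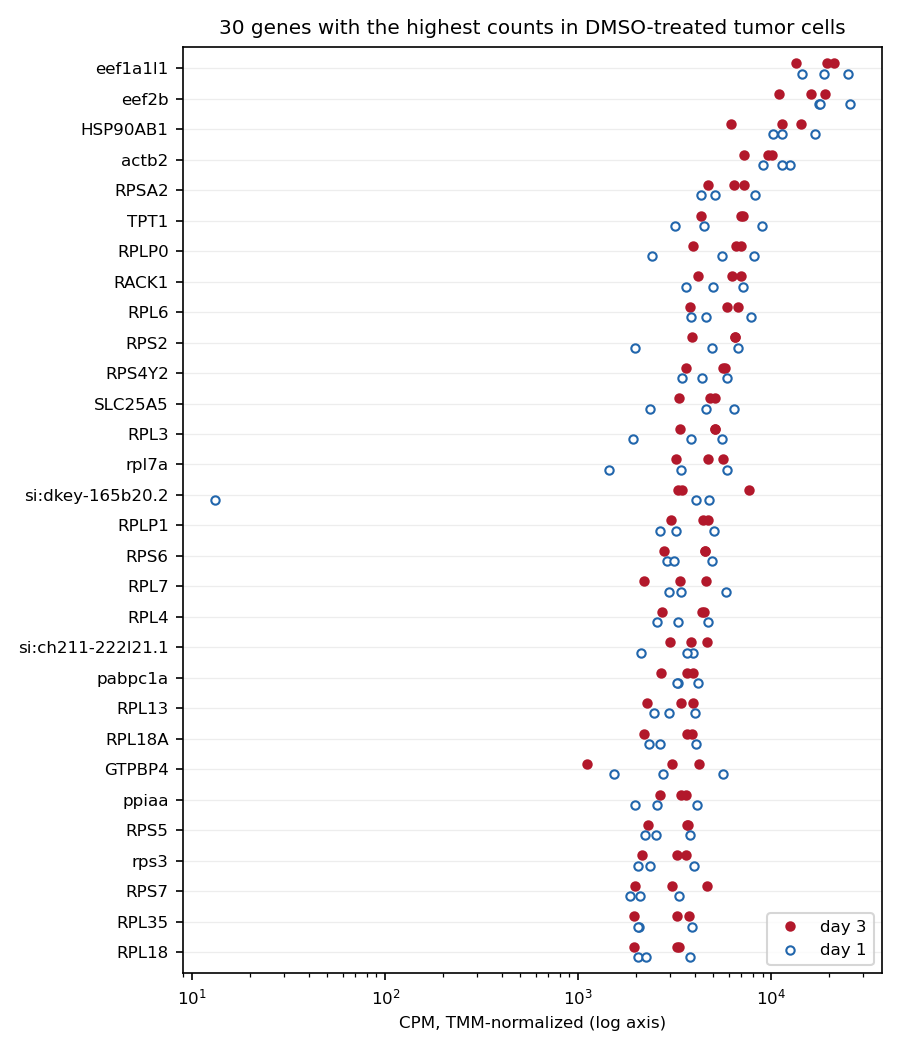
CPM (TMM-normalized, log axis) of the 30 zebrafish genes with the highest mean, one row per gene. Filled points are the 3 day 3 libraries and open points the 3 day 1 libraries. The days overlap in each row, and *si:dkey-165b20.2* has 1 day 1 library at 13.1 CPM while its other 5 libraries lie between 3303 and 7703 CPM.

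Ribosomal protein genes overlapped between the days as a group. Their summed level was 174658, 125720 and 182349 CPM at day 3 and 110625, 181679 and 134916 CPM at day 1. The highest library of each day had nearly the same sum, and the lowest of each day was replicate 2 at day 3 and replicate 1 at day 1. Of 83 genes tested, 74 were higher at day 3 with a median log2 fold change of 0.13, and 0 had an unadjusted p under 0.05 in edgeR. Without day 1 replicate 1 the median was -0.04, so the sign rested on that library.

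Across all genes no difference between the days passed the test. edgeR called 0 of 14106 genes (0%) at an adjusted p of 0.05, and the smallest adjusted p was 0.283. At an unadjusted p under 0.05 there were 701 genes (4.97%), 280 higher (1.98%) and 421 lower (2.98%) at day 3. The libraries of the days did not overlap for 1401 genes (9.93%). DESeq2 on the same 6 libraries called 118 genes (0.837%), 28 higher and 90 lower, and all 118 had an unadjusted p under 0.05 in edgeR. The median log2 fold change over all genes was -0.03, and -0.14 when libraries were scaled by their ERCC counts.

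The median absolute log2 fold change of the genes tested was 0.30, and a minority of genes had larger fold changes. In 2023 genes (14.3%) the fitted difference was over 2-fold, 544 higher and 1479 lower at day 3. They were set against a large spread, a biological coefficient of variation of 0.533 in this fit. Leaving out 1 library at a time gave 0 to 4 called genes. The 4 appeared without day 1 replicate 2 and were *KLHL29*, *PCDH10*, *MAP7D2* and *BAIAP3*, of which the last 3 are named here after their values were seen. *PCDH10*, a protocadherin, had 0.488, 0.394 and 0.643 CPM at day 3 and 100.2, 0.192 and 91.5 CPM at day 1, and day 1 replicate 2 was thus with the day 3 libraries. *BAIAP3*, a gene of vesicle trafficking, had 303, 330 and 313 CPM at day 3 and 24.4, 194 and 18.8 CPM at day 1, with that same library again nearer to day 3.

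Distances between whole transcriptomes also did not separate the days. Over the 8564 genes with 10 CPM or more on average, the root mean square difference in log2 CPM was 0.803 to 0.911 between day 3 libraries, 1.04 to 1.18 between day 1 libraries and 0.869 to 1.31 between libraries of different days. The mean across days exceeded the mean within days by 0.04 (two-sided exact permutation test over the 6 libraries, p = 0.3, smallest possible p 0.1). Each of the 3 day 1 libraries was nearest to day 3 replicate 1 and not to another day 1 library. By contrast, each day 3 library was nearest to another library of day 3. Day 1 replicate 3 was farthest from the rest, with a mean distance of 1.13.

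**Figure D2:**
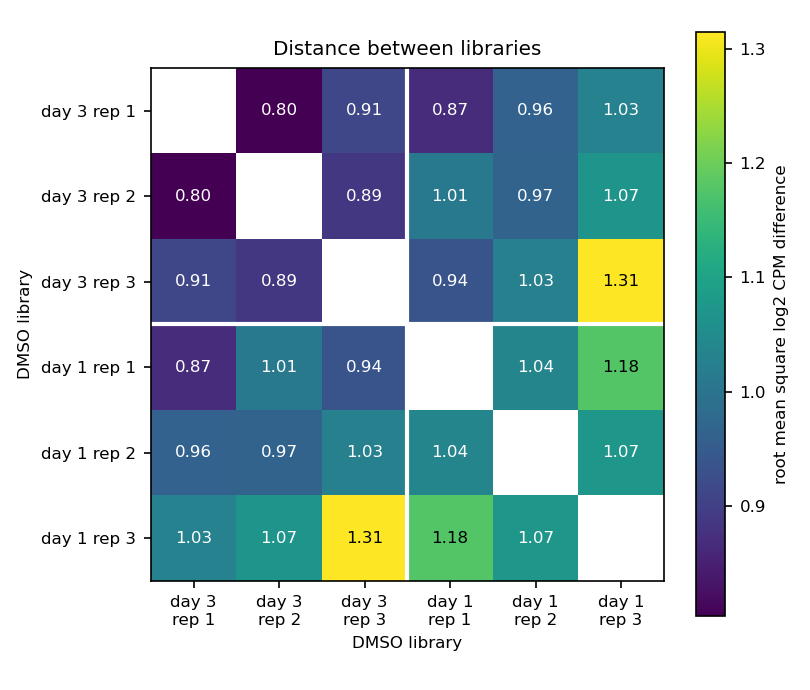
Root mean square difference in log2 CPM between each pair of the 6 DMSO libraries, day 3 before day 1 on both axes and white lines between the days. The day 3 block at the upper left is the darkest, with 0.80 to 0.91, and the largest value is 1.31, between day 3 replicate 3 and day 1 replicate 3.

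Among genes higher at day 3, those with the lowest p included a spindle protein, a partner of MAX and a T-cell coreceptor, and none passed the test. Named were the 10 with the lowest unadjusted p in each direction among genes without overlap and with at least 10 CPM in the higher day. *CKAP5*, a microtubule polymerase of the mitotic spindle, had 1306, 1127 and 1375 CPM at day 3, against 359, 323 and 456 CPM at day 1. Its 3 day 3 libraries lay close together and far above those of day 1, with a log2 fold change of 1.74 ± 0.23 (SE) and an edgeR adjusted p of 0.283. In the JQ1 libraries *CKAP5* had 377, 191 and 332 CPM at day 3 and 468, 281 and 364 CPM at day 1, each below the 3 DMSO libraries of day 3. The difference between the *CKAP5* day change in DMSO and in JQ1 cells had an adjusted p of 0.612 in edgeR's interaction test.

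*mxd1*, a MAX partner that opposes MYC, had 36.5, 19.0 and 26.4 CPM at day 3 and 4.88, 7.09 and 4.95 CPM at day 1 (log2 fold change 2.27, edgeR adjusted p 0.308). *cd8b*, a chain of the CD8 coreceptor, had 19.7, 60.2 and 29.4 CPM at day 3 and 2.48, 6.80 and 2.89 CPM at day 1 (log2 fold change 3.17, edgeR adjusted p 0.499). The other chain, *cd8a*, had 9.52, 72.1 and 101 CPM at day 3 and 1.6, 4.50 and 7.23 CPM at day 1. Both chains were thus higher in each day 3 library than in each day 1 library. *cd4-1*, the coreceptor of helper cells, had 7.57, 15.7 and 6.81 CPM at day 3 and 1.68, 4.89 and 23.4 CPM at day 1, and its days overlapped. Fewer cells with a transcript and less of it per cell cannot be told apart in bulk RNA, here and below.

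*CDH2*, which encodes N-cadherin, had 102, 224 and 272 CPM at day 3 and 53.1, 20.3 and 22.7 CPM at day 1. In the JQ1 libraries *CDH2* had 25.6, 34.4 and 28.7 CPM at day 3 and 47.0, 36.7 and 40.7 CPM at day 1. There the days did not overlap and the direction was the opposite. The difference between the *CDH2* day change in DMSO and in JQ1 cells had an adjusted p of 0.612 in edgeR's interaction test. *TCF12*, an E protein that pairs with other helix-loop-helix factors in thymocytes, had 40.5, 53.6 and 43.1 CPM at day 3 and 9.59, 20.3 and 15 CPM at day 1. A second E-protein gene, *tcf3b* (E2A), had 93.7, 103 and 98.4 CPM at day 3 and 48.2, 72.5 and 41.7 CPM at day 1. For *ID3*, which blocks E proteins, the values were 61.8, 33.6 and 5.91 CPM at day 3 and 34.8, 137 and 64.4 CPM at day 1, with overlap. The log2 fold changes were 2.64 for *CDH2*, 1.61 for *TCF12* and 0.86 for *tcf3b*, and -1.22 for *ID3*, none of them past the edgeR threshold. The other 5 genes of this group were *CCDC39*, *plagx*, *zgc:171506*, *MFSD6* and *STON1*, with log2 fold changes of 1.41 to 6.33.

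Among the genes lower at day 3 were several with a near absence at one time. *TMC2* (ENSDARG00000033104), named for a channel of sensory hair cells, had 0.651, 0.887 and 0.386 CPM at day 3 and 20.6, 17.4 and 44.3 CPM at day 1 (log2 fold change -5.38, edgeR adjusted p 0.283). *KLHL29*, a kelch-family gene, was at or under 3 counts in each day 3 library and had 91.9, 8.33 and 74.3 CPM at day 1. *RETSAT*, which encodes retinol saturase, had 0.488, 0.986 and 0.386 CPM at day 3 and 28.0, 108 and 18.9 CPM at day 1. In JQ1 libraries *RETSAT* had 58.8, 15.8 and 1.5 CPM at day 3 and 107, 77.6 and 101 CPM at day 1, without overlap and in the same direction. For *KLHL29* the days overlapped in the JQ1 libraries. The difference between the *RETSAT* day change in DMSO and in JQ1 cells had an adjusted p of 0.711 in edgeR's interaction test.

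Of the other genes in this group, *blk*, a Src-family kinase best known from B cells, had 8.54, 4.34 and 1.93 CPM at day 3 and 63.4, 55.8 and 70.7 CPM at day 1. *foxp1a*, a forkhead factor that keeps T cells quiescent in mice, had 42.1, 27.6 and 38.3 CPM at day 3 and 124, 184 and 110 CPM at day 1. *sh3kbp1*, an adaptor in receptor endocytosis, had 88.8, 74.7 and 67.8 CPM at day 3 and 204, 208 and 223 CPM at day 1, with the smallest spread of the group. *TSHZ2*, a zinc finger factor, had 4.8, 3.84 and 1.16 CPM at day 3 and 57.6, 49.3 and 61.6 CPM at day 1. The log2 fold changes of these 4 ran from -4.08 to -1.46, with an adjusted p of 0.283 each in edgeR. *TCF7* and *RUNX1*, both T-cell factors and both without overlap, had log2 fold changes of -0.93 and -0.88 with an edgeR adjusted p of 0.904 each. The remaining genes of the group were *adam19a*, *si:ch1073-190k2.1* and *zgc:152891*. All 20 genes named by this rule were among the 118 called by DESeq2. That test used the same libraries by which the 20 were chosen, so it gives no separate support.

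**Figure D3:**
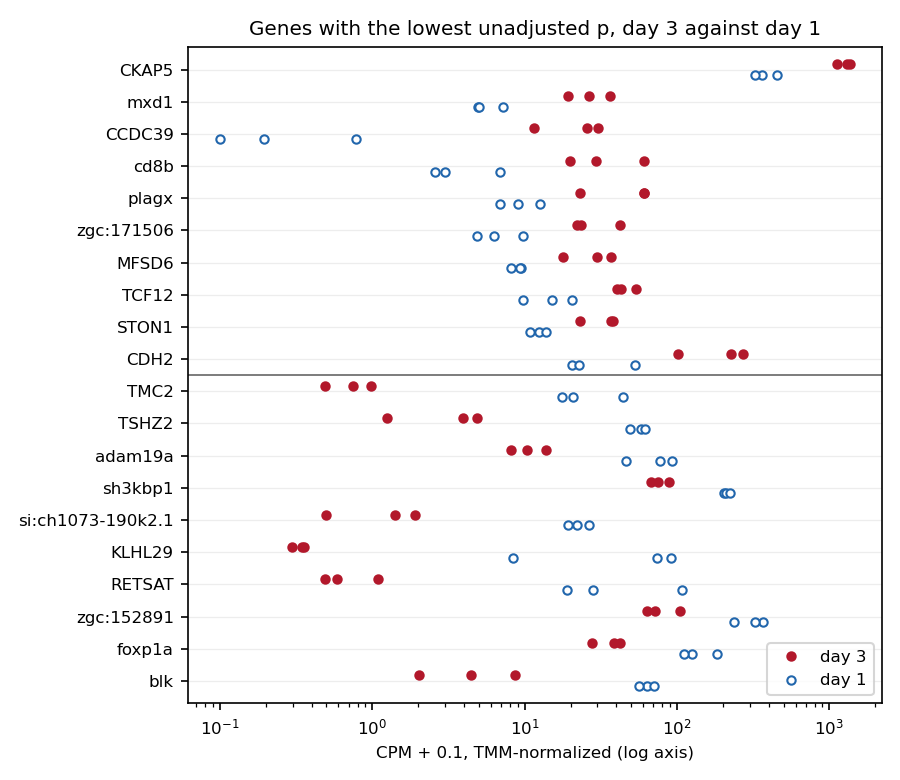
CPM + 0.1 (TMM-normalized, log axis) of the 10 genes with the lowest unadjusted p among those higher at day 3 (above the line) and among those lower at day 3 (below it), with filled points for day 3 and open points for day 1 libraries. The days do not overlap in any row, a condition of the choice, and 0 of the 20 genes passed an adjusted p of 0.05 in edgeR.

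Genes of the cell cycle had higher fitted levels at day 3, without a call. Of 32 tested, 31 had a higher fitted level at day 3, with a median log2 fold change of 0.72 beside -0.03 over all genes, and 0 passed the edgeR threshold. In 11 the unadjusted p was under 0.05, all higher, and in 11 the days did not overlap (beside 4.97% and 9.93% of all genes tested). *TOP2A*, the topoisomerase that untangles replicated chromosomes, had 396, 686 and 437 CPM at day 3 and 265, 333 and 194 CPM at day 1. *CDK1*, the mitotic kinase, had 55.1, 100.1 and 67.0 CPM at day 3 and 32.8, 51.0 and 35.2 CPM at day 1. *bub1*, a spindle checkpoint kinase, had 119, 162 and 176 CPM at day 3 and 77.1, 103 and 60.9 CPM at day 1. Each day 3 library was above each day 1 library for the 3 genes.

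*PCNA*, the sliding clamp of DNA replication, had 880, 1620 and 900 CPM at day 3 and 836, 648 and 253 CPM at day 1, without overlap. *MCM2* (ENSDARG00000102798), a subunit of the replicative helicase, had 461, 516 and 559 CPM at day 3 and 618, 320 and 157 CPM at day 1, so its highest and its lowest library were both of day 1. *mki67*, a marker of cycling cells, had 988, 1636 and 1229 CPM at day 3 and 1046, 955 and 575 CPM at day 1, with overlap. Summed over the list the level was 6161, 10420 and 7097 CPM at day 3 and 6780, 4619 and 2915 CPM at day 1, and the days overlapped. The median kept its sign in 11 of 11 other settings of the test (0.48 to 0.91), while the number of genes with an unadjusted p under 0.05 was 2 without day 1 replicate 3 and 2 without day 3 replicate 2. Day 1 replicate 3, the library with the lowest sum, was also the library with the most macrophage and erythrocyte RNA, whose part in the result was not tested.

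In the JQ1 libraries the same list summed to 2263, 2559 and 1925 CPM at day 3 and 4131, 2259 and 3990 CPM at day 1. For a different day change in DMSO and JQ1 cells, 21 of 32 genes had an unadjusted p under 0.05, beside 6.96% of the 18116 genes in that interaction test, and 0 passed an adjusted p of 0.05 in edgeR. Over all genes edgeR called 0 of 18116 in this interaction (1260 at an unadjusted p under 0.05) and DESeq2 38. Its median over all genes was -0.04 with TMM and -1.2 with ERCC scaling. JQ1 libraries also differed in RNA of other cells. JQ1 day 3 replicate 2 had 13150 CPM of macrophage genes, against at most 3705 CPM in a DMSO library. Its T-cell identity sum was 4370 CPM, against at least 11146 CPM in DMSO libraries. Only 10045 of its counts were on the transgenes, against at least 63015 in DMSO libraries. The part of this in differences between DMSO and JQ1 cells, here and elsewhere, was not tested.

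Genes of the circadian clock had lower fitted levels at day 3, without a call in edgeR. The clock is a feedback loop in which CLOCK and BMAL proteins turn on *per*, *cry* and *nr1d* genes, whose products then hold them back, and zebrafish cells keep such loops set by light. Of 34 genes tested, 29 were lower at day 3 with a median log2 fold change of -0.71. In 11 the unadjusted p was under 0.05, all lower, in 12 the days did not overlap (beside 4.97% and 9.93% of all genes tested), and 0 passed the edgeR threshold. The median stayed between -0.97 and -0.47 in the 11 other settings, and the value nearest to 0 was that without day 1 replicate 2. The number of unadjusted p under 0.05 was 5 without day 1 replicate 2, 5 without day 3 replicate 2 and 4 without day 3 replicate 3.

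Among the repressors, *PER3* had 142, 92.6 and 119 CPM at day 3 and 207, 227 and 259 CPM at day 1 (log2 fold change -0.97, edgeR adjusted p 0.702). DESeq2 called *PER3* (adjusted p 0.0302) as the only gene of this list. *PER1* (ENSDARG00000012499) had 235, 233 and 228 CPM at day 3 and 311, 676 and 350 CPM at day 1. *PER2*, which light induces in zebrafish, had 16.4, 5.91 and 9.90 CPM at day 3 and 18.1, 71.3 and 49.5 CPM at day 1. The 3 genes did not overlap between the days, narrowly for *PER2*. The nuclear receptor gene *NR1D2* had 148, 119 and 124 CPM at day 3 and 164, 392 and 210 CPM at day 1, and its paralog *nr1d2a* had 106, 109 and 27.6 CPM at day 3 and 143, 637 and 210 CPM at day 1. Day 1 replicate 2 was the highest library for *PER1*, *PER2*, *NR1D2* and *nr1d2a*.

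Output factors had the same direction. *tefa*, a PAR bZIP factor, had 92.7, 56.3 and 34.6 CPM at day 3 and 115, 187 and 137 CPM at day 1. *ciarta*, a repressor of CLOCK, had 84.3, 38.3 and 40.4 CPM at day 3 and 112, 180 and 99.3 CPM at day 1. Of the activators named above, *CLOCK* (ENSDARG00000003631) had 169, 159 and 165 CPM at day 3 and 162, 144 and 116 CPM at day 1. *BMAL1* (ENSDARG00000006791) had 12.5, 8.97 and 12.3 CPM at day 3 and 10.2, 9 and 11.0 CPM at day 1. Both overlapped between the days, with log2 fold changes of 0.23 and 0.16. The second copies of *CLOCK* and *BMAL1* had 0.10 and -1.16. *RORA*, *cry5* and *cry-dash* were also lower at day 3, without overlap and with an unadjusted p under 0.05 in edgeR. Summed over the list the level was 1905, 1660 and 1433 CPM at day 3 and 2230, 3349 and 2605 CPM at day 1, without overlap. In JQ1 libraries the sum was 2597, 3953 and 2771 CPM at day 3 and 3533, 3984 and 2871 CPM at day 1, with overlap. Of the 34 genes, 1 had an unadjusted p under 0.05 for a different day change in DMSO and JQ1 cells. Over all 18116 genes in that edgeR interaction test the share was 6.96%.

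Immediate early genes, which answer to stress or receptor signals within minutes, were lower at day 3 in 26 of 27 tested, with a median log2 fold change of -1.59. In 5 the unadjusted p was under 0.05 (beside 4.97% of all genes tested), and edgeR called 0. They also varied widely between animals. Their median SD within a day was 1.33 on the log2 scale, against 0.35 over all genes with at least 10 CPM, and the days overlapped in each of the 27. *FOSB* had 98.5, 10.5 and 18 CPM at day 3 and 47.2, 604 and 63.8 CPM at day 1. *NR4A1*, a nuclear receptor induced by T-cell receptor signals, had 242, 28.5 and 15 CPM at day 3 and 133, 1176 and 72.8 CPM at day 1. *EGR2* had 18.8, 8.87 and 1.67 CPM at day 3 and 7.91, 242 and 20.1 CPM at day 1. In all 3 genes 1 library, day 1 replicate 2, was far above the other 5, and without it the list's median was -0.52.

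Glycolysis and hypoxia genes had their highest sum in that same library. *LDHA*, lactate dehydrogenase, had 39.4, 116 and 34.5 CPM at day 3 and 68.4, 678 and 99.9 CPM at day 1. *ALDOA* (ENSDARG00000011665), aldolase, had 543, 511 and 421 CPM at day 3 and 516, 2311 and 451 CPM at day 1. Summed over 34 genes the level was 1982, 2748 and 1663 CPM at day 3 and 2160, 7004 and 2348 CPM at day 1. All 25 genes tested had a negative log2 fold change, with a median of -0.71, which became -0.23 without day 1 replicate 2, and the edgeR test called 0. The granzyme gene *gzmk*, of cytotoxic lymphocytes, was highest there too, with 3.82, 4.53 and 4.50 CPM at day 3 and 1.36, 177 and 2.74 CPM at day 1.

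**Figure D4:**
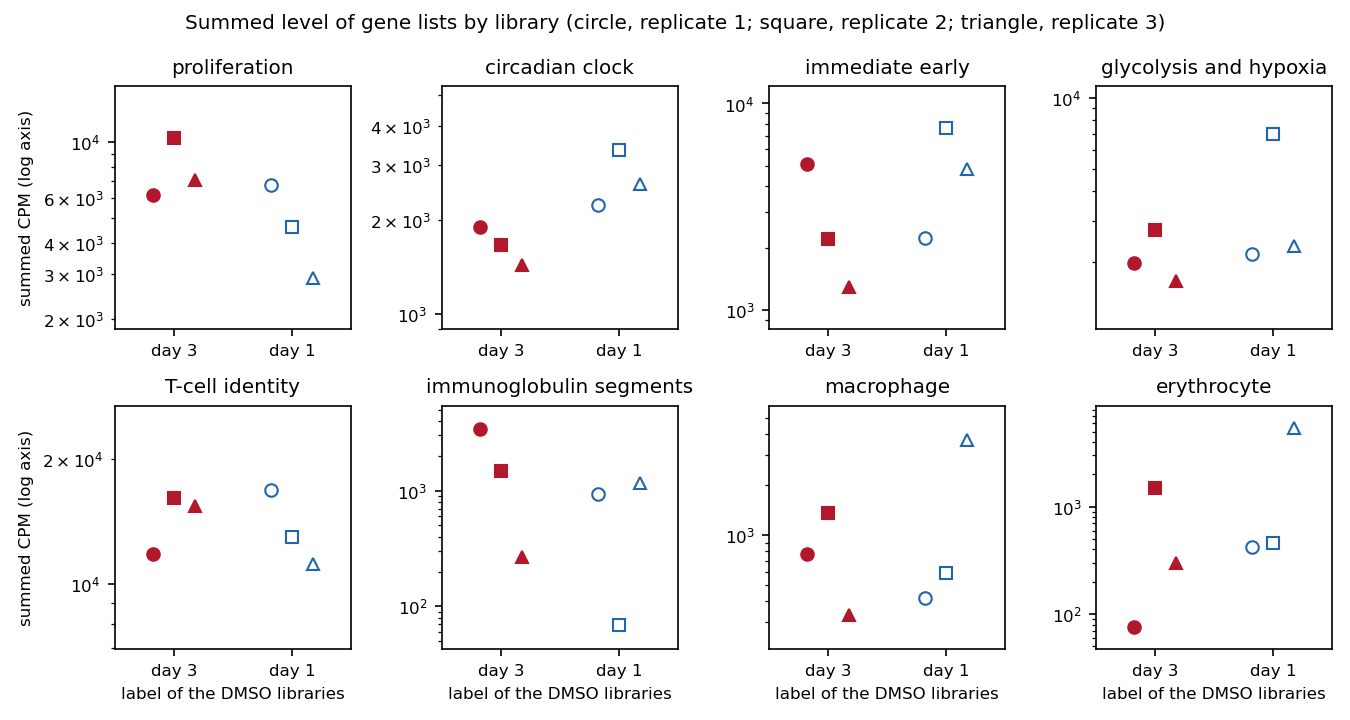
Summed CPM (log axis, not TMM-normalized) of 8 gene lists in the 6 DMSO libraries, day 3 with filled and day 1 with open symbols, and the symbol giving the replicate number. The circadian list does not overlap between the days (1433 to 1905 CPM at day 3, 2230 to 3349 CPM at day 1), while the other 7 do, with day 1 replicate 2 highest for glycolysis and hypoxia (7004 CPM) and day 1 replicate 3 highest for macrophage (3705 CPM) and erythrocyte (5424 CPM) genes.

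RNA of other blood cells differed widely between libraries of the same day. Of 16 erythrocyte genes, 11 were tested and all 11 were lower at day 3, with a median log2 fold change of -2.32. Their sum was 75.6, 1476 and 299 CPM at day 3 and 425, 455 and 5424 CPM at day 1. The alpha-globin gene *hbaa1* had 24.7, 620 and 102 CPM at day 3 and 121, 185 and 1373 CPM at day 1. Without day 1 replicate 3 the median of the list was 0.09, so the direction rested on that library. Another 5 members, 4 globin genes of the name *HBE1* and a copy of *SLC4A1*, were at or under 3 counts in each library.

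Macrophage genes were highest in the same library. The 21 members summed to 770, 1354 and 331 CPM at day 3 and 418, 588 and 3705 CPM at day 1. *marco*, a scavenger receptor, had 48.2, 83.6 and 21.1 CPM at day 3 and 21.1, 49.6 and 503 CPM at day 1. *ACOD1*, which makes itaconate in activated macrophages, had 2.03, 1.08 and 1.03 CPM at day 3 and 0.0799, 0.287 and 174 CPM at day 1. The median log2 fold change of the 17 tested members was -1.26, and 0.68 without day 1 replicate 3. A copy of *MPEG1* was at or under 3 counts in each library. Muscle genes were near 0, with a sum of at most 3.71 CPM.

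Immunoglobulin transcripts were spread over a wide range within each day. The constant gene *ighm* had 2665, 949 and 195 CPM at day 3 and 617, 10.7 and 757 CPM at day 1. The 59 immunoglobulin segments summed to 3368, 1486 and 265 CPM at day 3 and 929, 68.5 and 1164 CPM at day 1. Of 38 tested, 37 had a higher fitted level at day 3, with a median log2 fold change of 1.62, but none stood without overlap between the days. Without day 3 replicate 1, the library with the highest sum, the median was 0.43. The B-cell list of 18 genes summed to 5418, 4118 and 687 CPM at day 3 and 1603, 876 and 7422 CPM at day 1. Of the 18, 10 had 10 CPM or more on average, and only *EBF1*, a factor that defines B cells, was at or under 3 counts in each library. The sum of the list was led by *cd74a*, the invariant chain of MHC class II, at 1831, 1811 and 295 CPM at day 3 and 450, 648 and 4688 CPM at day 1. *cd74a* was highest in the library with the most macrophage RNA, and which cells gave it was not tested.

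Between animals, most genes were stable and a minority was not. The SD of log2 CPM within a day had a median of 0.35 (a 1.27-fold difference for 1 SD), with quartiles of 0.24 and 0.53, over 8564 genes. It was over 1 in 875 genes (10.2%) and over 2 in 189. The median SD was 0.26 at day 3 and 0.38 at day 1. The common biological coefficient of variation, fitted for each group alone, was 0.365 at day 3 and 0.507 at day 1 for DMSO, and 0.506 and 0.352 for JQ1 at the same days, so neither day had the larger spread under both treatments. Among the genes with the smallest SD at 100 CPM or more were *matr3l1.2*, which encodes a nuclear matrix protein, *UBR4*, *ptpn1*, *ppip5k2*, *MAPK3*, *CYTH1*, *PRKAB1*, *CLASP2* and *utrn*. The ubiquitin ligase gene *UBR4* had 479, 469 and 519 CPM at day 3 and 510, 507 and 510 CPM at day 1. *MAPK3*, which encodes the kinase ERK1, had 125, 124 and 124 CPM at day 3 and 115, 123 and 108 CPM at day 1.

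A set of genes was near absent in some libraries and present in others. At or under 3 counts in at least 1 library and at 10 CPM or more in another were 351 of 25607 genes, of which 185 had both states within 1 day. The remaining libraries could lie between these limits. None was off in all 3 libraries of one day and at 10 CPM or more in all 3 of the other. Of the 351, 81 were off in day 1 replicate 2 alone and 76 in day 3 replicate 3 alone, the library with the fewest counts (8176139). In the 6 JQ1 libraries 245 of the 351 were off in none and 37 had both states. A coarser split, 10 CPM or more in some libraries and under 3 CPM in all others, held for 263 genes in 45 patterns. Of these, 85 were high in day 1 replicate 3 alone, 9 followed the day (1 high at day 3, 8 high at day 1) and 4 of those 9 are named above.

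The clearest pattern of this kind lay in the MHC, the cluster whose class I genes present peptides made by the proteasome. *PSMB8*, a catalytic subunit of the immunoproteasome, had 0, 0.986 and 138 CPM at day 3 and 0.240, 65.9 and 0 CPM at day 1. *PSMB9*, its partner subunit, had 0, 0.0986 and 30.9 CPM at day 3 and 0, 14.7 and 0 CPM at day 1. The proteasome genes *psmb13a* and *psmb12* had 42.3 and 50.5 CPM in day 3 replicate 3, 22.6 and 27.1 CPM in day 1 replicate 2, and at most 0.591 CPM in the other 4 libraries. *tap2a*, a subunit of the peptide transporter TAP, had 0, 0 and 34.3 CPM at day 3 and 0, 13.2 and 0 CPM at day 1. All 5 genes were thus present in the same 2 libraries, 1 of each day, and at or under 3 counts in each of the 6 JQ1 libraries.

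These 5 genes are neighbours. In the RefSeq annotation of assembly GRCz12tu they follow each other on chromosome 19 in the order *psmb13a*, *psmb8a*, *psmb12*, *psmb9a* and *tap2a*, between *mhc1uba* and *brd2a* and near the tapasin gene *tapbp.1* (the counts were made on GRCz11, whose coordinates were not used). MHC haplotypes of zebrafish are known to differ in gene content at this place, and the haplotypes of these animals were not tested. The neighbours had another pattern: *mhc1uba*, a class I gene, had 366, 272 and 113 CPM at day 3 and 290, 43.7 and 191 CPM at day 1. *tapbp.1* had 53.2, 60.0 and 51.2 CPM at day 3 and 59.8, 46.7 and 45.8 CPM at day 1. The libraries with the 5 genes were the lowest for *mhc1uba* of their day, and near the others for *tapbp.1*. Class I partners elsewhere in the genome, such as *b2m*, were measured in each library (2444, 1914 and 1283 CPM at day 3, 1702, 447 and 1141 CPM at day 1). The libraries with the 5 genes were the lowest of their day for *b2m* too. They were also the lowest of their day for the summed list of MHC genes (4511 CPM at day 3, 3255 CPM at day 1). That list was led by *cd74a*. The B-cell list also had its lowest sum of each day in these libraries (687 CPM at day 3, 876 CPM at day 1). The source of these low levels was not tested.

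Only 1 more gene followed the same split, *si:dkey-266f7.10*, with 0.488, 1.28 and 133 CPM at day 3 and 1.2, 183 and 0.685 CPM at day 1. A second pattern, low in day 3 replicate 1 and day 1 replicate 3 alone, held for 5 genes. The leading one was *RRM2* (ENSDARG00000020711), a gene named for the small subunit of ribonucleotide reductase, with 0.325, 347 and 309 CPM at day 3 and 129, 137 and 0.152 CPM at day 1. The other gene of that name (ENSDARG00000078069) had 216, 123 and 172 CPM at day 3 and 124, 125 and 114 CPM at day 1. Each library thus had at least 1 of the copies, and where the first was absent the second was at 216 CPM at day 3, the highest of the 6, and at 114 CPM at day 1, the lowest. Only reads with a single place in the genome entered the counts, so levels of near-identical copies are uncertain. *COL12A1*, a collagen gene, had 0, 42.9 and 59.14 CPM at day 3 and 136, 66.7 and 0.533 CPM at day 1.

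Other genes with a large spread came from several classes, and their source was not tested. *cacna1aa*, a calcium channel gene, had 3.09, 649 and 8.23 CPM at day 3 and 4.8, 1744 and 3.73 CPM at day 1, and in JQ1 libraries it ranged from 3.71 to 1419 CPM. *capn8*, a calpain protease gene, had 40.6, 1.28 and 0.257 CPM at day 3 and 1143, 0.766 and 434 CPM at day 1. *pbx3a*, a homeobox gene, had 87.7, 0 and 0 CPM at day 3 and 177, 8.52 and 0 CPM at day 1. *vtg1*, which encodes the yolk precursor vitellogenin made by the liver, had 209, 148 and 0.129 CPM at day 3 and 30.1, 0 and 0 CPM at day 1, and 16168 CPM in 1 JQ1 library. *hnrnpa0l*, an RNA-binding protein gene, had 196, 1.68 and 93.6 CPM at day 3 and 0.720, 108 and 136 CPM at day 1. The 20 genes with the largest SD ended at 3.48, and the next gene had 3.45. Of these 20, 3 were below the count filter of the day test, and the other 17 had an adjusted p of 0.904 to 0.995 in edgeR.

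**Figure D5:**
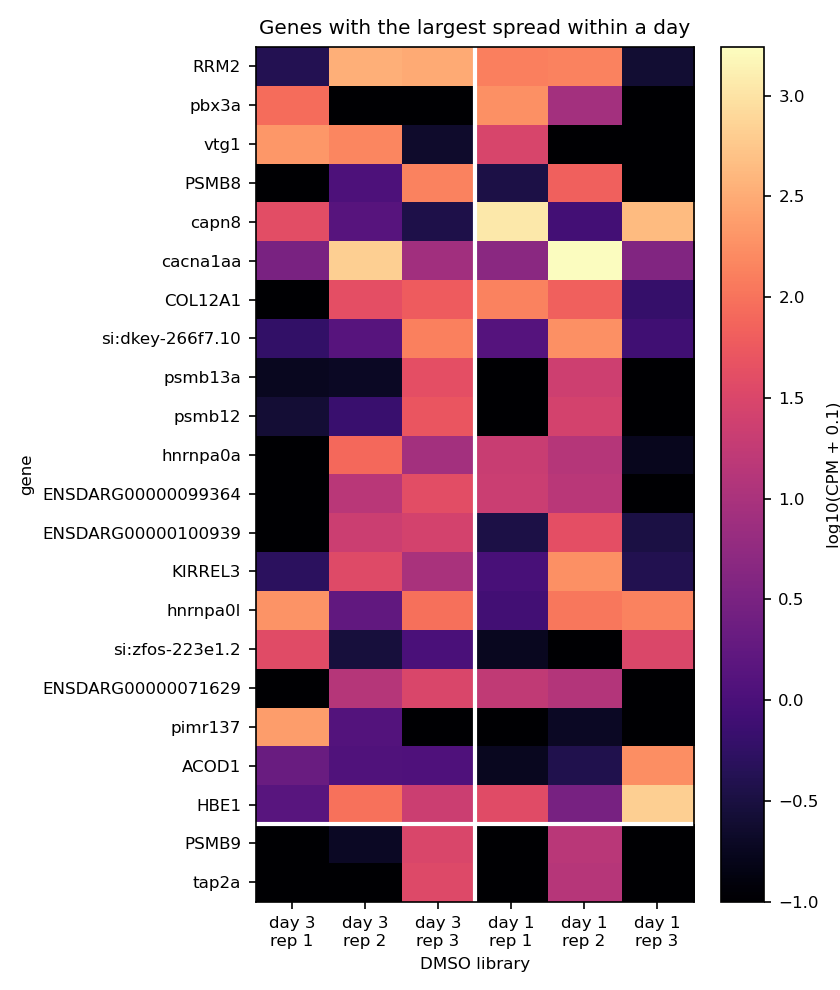
log10 of CPM + 0.1 in the 6 DMSO libraries, day 3 left of the white line and day 1 right of it, for the 20 genes with the largest SD within a day and, under the horizontal line, *PSMB9* and *tap2a*. *PSMB8*, *psmb13a*, *psmb12*, *PSMB9* and *tap2a* are bright in day 3 replicate 3 and day 1 replicate 2 and dark in the other 4 libraries.

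Lymphocyte genes had their own differences between animals. *RAG1*, a subunit of the V(D)J recombinase, had 259, 911 and 1077 CPM at day 3 and 227, 795 and 34.1 CPM at day 1, with an SD of 1.8 on the log2 scale. *RAG2*, the other subunit, had 111, 220 and 420 CPM at day 3 and 231, 97.2 and 151 CPM at day 1. *ptprc*, the leukocyte phosphatase CD45, had 870, 4123 and 800 CPM at day 3 and 639, 1012 and 869 CPM at day 1, about the same in 5 libraries and several times higher in day 3 replicate 2. *rorc*, a nuclear receptor of thymocytes and T helper cells, had 167, 170 and 104 CPM at day 3 and 97.2, 146 and 20.5 CPM at day 1. Over the list of T-cell identity the median SD was 0.46, 17 genes were higher and 13 lower at day 3, and the median log2 fold change was 0.06 (-0.17 to 0.21 in other settings, with the sign changing).

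The study shortlisted 10 genes as active in tumor cells, and that choice is not independent of this tumor model. Of the 10, 4 had higher and 6 lower fitted levels at day 3, with a median log2 fold change of -0.08 (-0.27 to 0.33 in other settings, with the sign changing) and 0 calls in edgeR. *MYC* (ENSDARG00000007241) had 899, 659 and 1019 CPM at day 3 and 1155, 522 and 679 CPM at day 1, with overlap. *h2ax*, a histone variant of the DNA damage response, had 1211, 684 and 858 CPM at day 3 and 606, 644 and 488 CPM at day 1, without overlap (log2 fold change 0.66, edgeR adjusted p 0.904). *SEC22B* (ENSDARG00000030108), a vesicle SNARE gene, had 119, 116 and 205 CPM at day 3 and 101, 55.8 and 28.4 CPM at day 1, also without overlap. Besides *GATA3*, given above, *MIDN*, *ncaldb*, *sla2b*, *psip1a*, *patl1* and *LRRN1* had log2 fold changes from -0.47 to 0.36.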

How the data were processed

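RNA of mCherry-sorted tumor cells was sequenced by the authors as strand-specific paired-end reads of 100 bp on a BGISEQ-500. The authors aligned reads to GRCz11 with STAR 2.5.2a, with 1 place allowed per read, and assigned them to genes with featureCounts. The deposited values are therefore raw read counts, for 25743 features. These were 25607 zebrafish genes, 92 ERCC sequences, 2 transgenes and 42 receptor constructs. The 2 other deposited tables hold the authors' DESeq2 1.12.4 comparisons of JQ1 with DMSO and were not used. Names were paired with 23608 gene IDs, and 3442 of them share a name with another ID.

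Groups follow the sample labels. The software was R 4.3.3 with DESeq2 1.42.0, limma 3.58.1 and edgeR 4.0.16. Low genes were removed with filterByExpr, libraries were scaled by TMM, and days were compared by edgeR's quasi-likelihood test at a Benjamini-Hochberg adjusted p of 0.05, with an interaction of day and treatment over all 12 libraries. The test was checked on simulated counts. The SD between animals was taken on log2 CPM (prior count 2).

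Named genes were the 30 with the highest mean CPM, the 10 with the lowest unadjusted p in each direction among genes without overlap between days and with at least 10 CPM in the higher day (the rule where fewer than 5 passed the test), the 20 with the largest SD within a day (10 CPM or more), the 10 with the smallest (100 CPM or more), the transgenes and the members of 39 gene lists; 1 gene that the rule names is not reported here. Members and lists were chosen with earlier results of these data known. Single values were compared by exact permutation tests, 3 libraries against 3. Other settings were DESeq2, ERCC scaling, no filter, all 12 libraries, a replicate block and each library left out in turn.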

Additional observations from a re-analysis of the deposited data

How the results depend on the processing

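The call of no gene by edgeR held with ERCC scaling, without a filter, with all 12 libraries in the fit and with a replicate block, and the count was 0 to 4 when 1 library was left out, while DESeq2 called 118. For a different day change in DMSO and JQ1 cells the count was 38 with DESeq2, 1 with ERCC scaling and 0 to 1 with 1 library left out. The cause of these differences was not tested. Over all genes tested the median log2 fold change, -0.0333, was -0.143 with ERCC scaling, 0.0263 with all 12 libraries and -0.0554 to 0.00566 with 1 library left out. The median SD between animals was 0.46 over genes with 1 CPM or more, against 0.35 over those with 10 CPM or more.

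Same-numbered libraries of the days had correlations of -0.02, 0.03 and -0.35 in their deviations from the day means over 8564 genes. Differently numbered libraries had correlations of -0.26 to 0.24. With 3 libraries per day these values cannot decide whether the replicate numbers pair the libraries. With the replicate block edgeR called 0 genes and the median log2 fold change was 0.0134. Of 701 named genes tested, 363 had another sign in at least 1 setting, 0 of them past the threshold there, and 24 passed the threshold in at least 1 setting. The ranges for gene lists were added after seeing the data. Differences between the fish of the days and an effect of the day itself cannot be told apart beyond what the spread within a day shows.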

Other observations

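Of 34 core histone and variant genes, 17 were at or under 3 counts in each library and 11 were tested. Fitted levels were higher at day 3 in 10 of the 11, with a median log2 fold change of 0.48, and 0.19 without day 1 replicate 3. In 3, *H2AZ2*, *h2ax* and *H3-3B*, the unadjusted p was under 0.05, beside 4.97% of all genes tested, and edgeR called 0. Genes of fibroblasts and matrix had negative log2 fold changes in 10 of 10 tested, with a median of -1.14. The median was -0.79 without day 1 replicate 3, -0.90 without day 1 replicate 2 and -1.78 without day 3 replicate 2. Only 1 of the 13 members had 10 CPM or more on average. In 2 of the 10 tested the unadjusted p was under 0.05, beside the same 4.97%, and edgeR called 0.

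The medians of several lists with lower fitted levels at day 3 moved with single libraries of day 1. Genes induced by glucocorticoids were lower in 14 of 16, with a median of -0.49, which was -0.25 without day 1 replicate 2, -0.25 without day 1 replicate 3 and -0.82 without day 1 replicate 1. Genes of starvation and FOXO activity were lower in 16 of 19, with a median of -0.58, which was -0.30 without day 1 replicate 2 and -0.97 without day 1 replicate 1. In each of these lists 3 genes had an unadjusted p under 0.05, beside 4.97% of all genes tested, and edgeR called 0. The lists share members. *foxo3b* was among the 3 in both, and *PER1*, among the 3 induced by glucocorticoids, was also counted in the circadian list. Genes of lymphocyte homing were lower in 12 of 15, with a median of -0.80, which was -0.18 without day 1 replicate 2, -0.52 without day 3 replicate 3 and -1.24 without day 1 replicate 1.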
